A study of Canis lupus with 23 samples.

Results

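The insulin-like growth factor binding proteins (IGFBPs) are a family of 7 secreted genes, IGFBP1 to IGFBP7, and their transcripts were measured in 23 tumors from 23 dogs on the Affymetrix Canine Genome 2.0 array. Members were taken by gene symbol in the platform annotation: 17 probesets (sets of short oligonucleotides designed against a transcript) carried 1 of the 7 symbols, out of 29254 probesets with a single symbol and 15115 genes in all. By diagnosis, there were 7 lymphomas, which arise from lymphocytes, 5 melanomas, from pigment cells, 4 sarcomas, from connective tissue, and 3 transitional cell carcinomas of the bladder (TCC). Hepatocellular carcinoma (HCC, from the liver), a nasal tumor, hemangiosarcoma (HSA, from vessel-lining cells) and histiocytic sarcoma (from the macrophage and dendritic cell lineage) were represented by 1 tumor each, so these had no replicate and entered no test. The sarcoma group joined 2 tumors titled STS (soft tissue sarcoma) and 2 titled Sarcoma, and tumors are named here by type and title number. All tumors were biopsies of naturally occurring cancer in pet dogs, stored in RNAlater, with no treatment given in the labels. The labels give the diagnosis only, not the age, breed, sex or site of a tumor. Per the methods, the TCC cohort was recruited among Scottish terriers and 1 lymphoma cohort among golden retrievers, so breed and tumor type cannot be fully told apart. Each array is a whole biopsy, in which fewer cells of a type and less RNA per cell cannot be told apart.

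IGFBP1 to IGFBP6 bind the growth factors IGF1 and IGF2 with high affinity in blood and in tissue fluid. Bound ligand cannot reach the IGF1 receptor, and proteases that cut a binding protein set the ligand free, so that a binding protein can hold back, store or deliver its ligand. IGFBP3 and IGFBP5 carry most circulating IGF in a complex with the acid-labile subunit, IGFBP1 is made chiefly by liver and falls with insulin, IGFBP2 is another liver and fetal product, IGFBP4 is the substrate of the protease PAPPA, IGFBP6 prefers IGF2, and IGFBP7 binds IGFs only weakly and is known as a product of vessel walls. In the dog family gene table of RefSeq (a wolf assembly, mCanLup2.hap1), IGFBP1 and IGFBP3 are direct neighbours, and so are IGFBP2 and IGFBP5. The build of the array is a different one, so no coordinates are given.

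The labels fit the defining genes of the tissues. The mean of 7 melanocyte genes was 10.16 to 10.56 (log2 of the signal plus 16, the scale used throughout) in the 5 melanomas and at most 6.29 in the other tumors. The 4 urothelial genes were at 10.36 to 11.33 in TCC, the 8 hepatocyte genes at 14.00 in HCC and the 11 endothelial genes at 9.19 in HSA. The 13 fibroblast genes were at 11.27 to 12.39 in the sarcomas, a range that melanoma 3 (11.34) also reached. The 6 macrophage genes were at 11.63 in histiocytic sarcoma and the 5 epithelial genes on the array at 11.24 in the nasal tumor. Among the lymphomas, the B cell genes ran from 6.80 to 10.97 and the T cell genes from 8.35 to 13.11, against at most 7.73 (Sarcoma_0) and 9.59 (histiocytic sarcoma) in the other tumors, so that the lowest lymphoma in each list was below some of them. The median signal of an array lay between 82.4 and 132.9, and the number of arrays limits the precision.

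**Figure D1:**
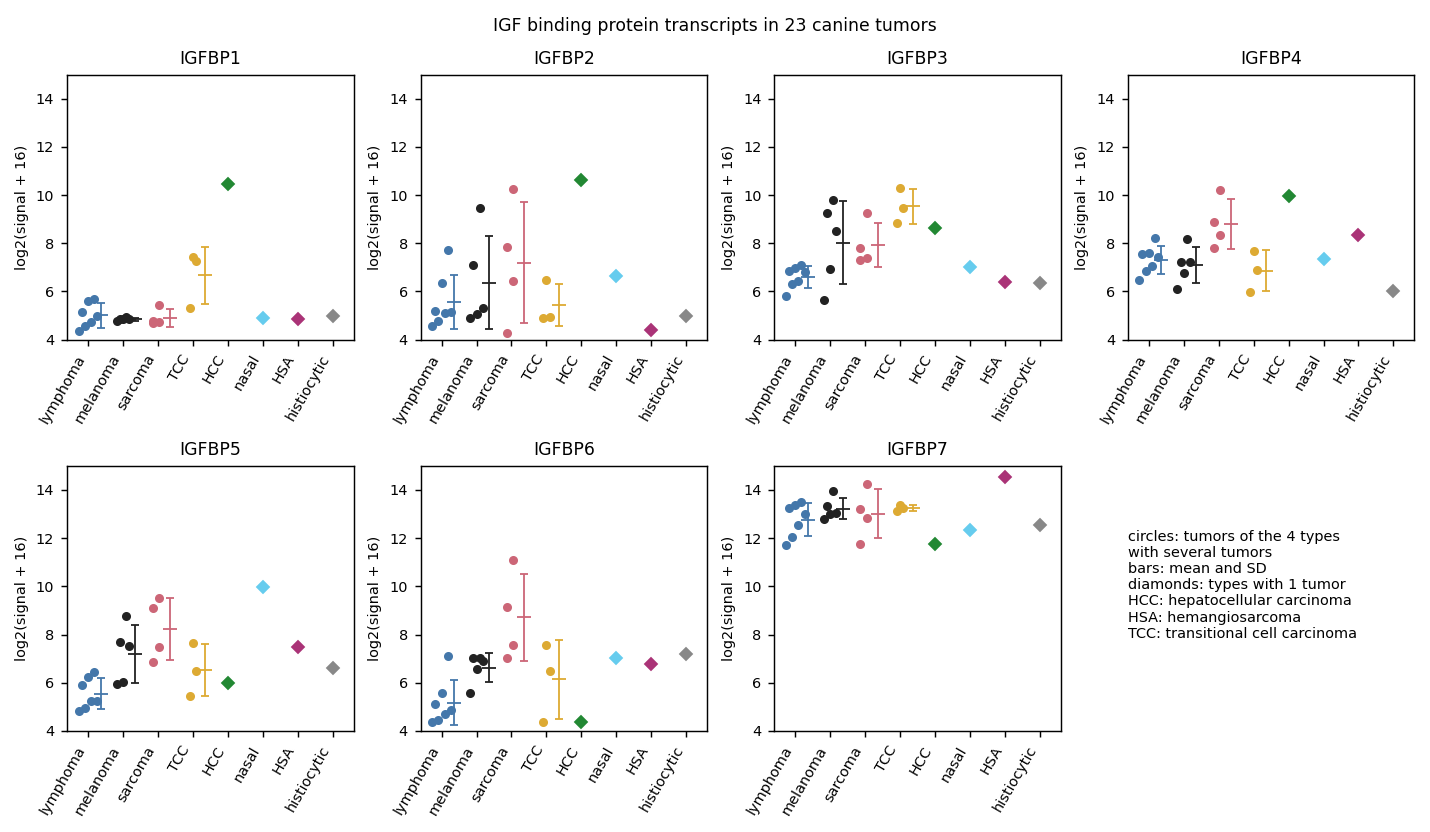
Level of each IGF binding protein transcript, as log2(signal + 16), in every tumor, by tumor type. Circles are single tumors of the 4 types with several tumors, with the mean and SD beside them, and diamonds are the 4 types with 1 tumor. IGFBP1 and IGFBP2 were highest in HCC (10.47 and 10.63), IGFBP5 in the nasal tumor (9.97), IGFBP7 in HSA (14.54), IGFBP3 in TCC 0 (10.30), and IGFBP4 and IGFBP6 in STS_1 (10.23 and 11.08).

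The binding proteins did not share a pattern across the tumors. Lymphoma had the lowest mean of the 4 replicated types for IGFBP3, IGFBP5, IGFBP6 and IGFBP7, sarcoma had the highest for IGFBP2, IGFBP4, IGFBP5 and IGFBP6, and TCC had the highest for IGFBP1, IGFBP3 and IGFBP7. Of the 7 members, 5 (IGFBP1, IGFBP3, IGFBP4, IGFBP5 and IGFBP6) were called in the F test over the 4 types with limma at an adjusted p under 0.05, where 35.6% of the 9972 genes tested were called. IGFBP2 (adjusted p = 0.426, limma) and IGFBP7 (adjusted p = 0.62, limma) were not called. All 7 passed the filter on low values, which asked for a level over 7.03, the median across all genes and arrays, on 3 or more arrays. IGFBP1 passed through exactly 3 tumors, HCC, TCC 1 and TCC 2, so that a gene kept in this way had to differ in them, and its tests are read together with its probesets below. IGFBP7 was above that median in all 23 tumors, IGFBP4 in 16, IGFBP3 in 12, IGFBP5 and IGFBP6 in 9 each, and IGFBP2 in 6. The range over the 23 tumors was widest for IGFBP6, at 6.72 log2 units, a range that 5% of the genes tested exceeded, and narrowest for IGFBP7, at 2.84, which 50.9% exceeded.

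Between pairs of types, a call required both an adjusted p under 0.05 and a difference of 1 or more on the log2 scale, in either direction. Lymphoma against sarcoma gave 3 members, IGFBP4, IGFBP5 and IGFBP6, all lower in lymphoma, where 16.9% of all genes were called. Lymphoma against TCC gave 2, IGFBP1 and IGFBP3, both lower in lymphoma (all genes, 18.1%), and lymphoma against melanoma gave 1, IGFBP5, lower in lymphoma (15.4%). Sarcoma against TCC gave IGFBP4, higher in sarcoma, and IGFBP1, lower in sarcoma (9.48%), and melanoma against TCC gave IGFBP1, lower in melanoma (9.26%). None was called between melanoma and sarcoma, where 1.78% of all genes were called and 2 members, IGFBP4 and IGFBP6, had an unadjusted p under 0.05 in limma. Over all pairs 9 of 42 tests of members were called, or 21.4%, beside 11.8% of the tests of all genes. Without IGFBP1, whose 3 calls go with the way it passed the filter, it was 6 of 36, or 16.7%. The median log2 fold change of the 7 members was -1.50 for lymphoma minus sarcoma (all genes, 0.09) and 1.70 for sarcoma minus TCC (all genes, 0.04). In the other 4 pairs it lay between -0.97 and 0.23, where the medians of all genes were between -0.02 and 0.11.

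**Figure D2:**
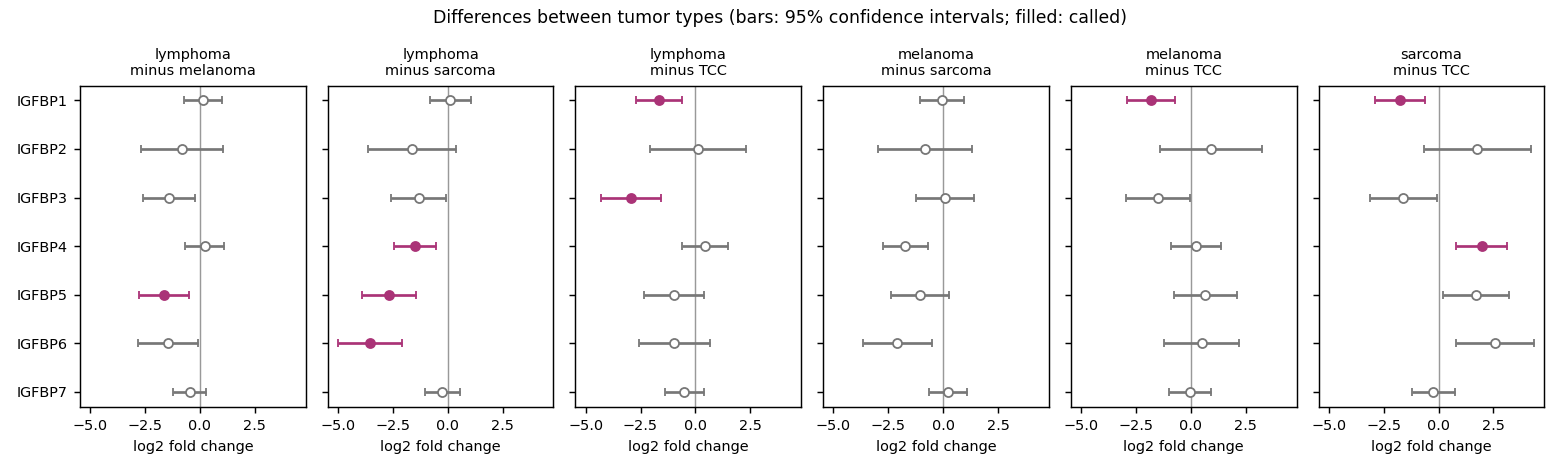
Log2 fold change of each binding protein transcript between 2 tumor types, first minus second, from the limma fit over 19 tumors, with its 95% confidence interval. Filled points are the 9 called differences. The widest distance from 0 is IGFBP6 in lymphoma minus sarcoma, at -3.54, and all 6 points of IGFBP7 lie within 0.50 of 0.

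IGFBP6, the binding protein that prefers IGF2, separated sarcoma from lymphoma by the largest amount in the family. Its levels in the sarcomas were 7.04 in Sarcoma_0, 7.56 in STS_0, 9.16 in Sarcoma_1 and 11.08 in STS_1. In the 7 lymphomas the lowest was 4.36, the median 4.86 and the highest 7.09, so only lymphoma 2 (7.09) reached into the sarcoma range, just above Sarcoma_0. The difference, lymphoma minus sarcoma, was -3.54 (SE 0.70, adjusted p = 0.00137, limma), an 11.6-fold difference of the signal plus 16. It stayed called without any 1 of the 19 tumors, from -4.09 to -2.75, and on both probesets alone, at -3.68 and -3.39. The melanomas lay between 5.59 and 7.04 with a median of 6.91, below every sarcoma, though the highest (melanoma 2, 7.037) was only just below Sarcoma_0 (7.041). With melanoma minus sarcoma at -2.08 (95% interval -3.65 to -0.52, adjusted p = 0.176, limma) the pair was not called. TCC was spread, with TCC 0 at 4.36, TCC 1 at 6.50 and TCC 2 at 7.57. The difference of sarcoma minus TCC, 2.57 (interval 0.79 to 4.35), missed the threshold with an adjusted p = 0.0615 in limma, and passed it without STS_0, Sarcoma_0, lymphoma 2 or TCC 2 (2.57 to 3.28, adjusted p = 0.0269 to 0.048, limma). Among the single tumors, histiocytic sarcoma (7.19), the nasal tumor (7.02) and HSA (6.76) were close to the melanomas, and HCC at 4.37 was among the 3 lowest of all.

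IGFBP5, a matrix-binding member of the family, showed a similar order of types with the nasal tumor on top. The 4 sarcomas were at 6.84 (Sarcoma_0), 7.47 (Sarcoma_1), 9.10 (STS_0) and 9.50 (STS_1). The 7 lymphomas ran from 4.83 to 6.43 with a median of 5.26, so the groups did not overlap. The difference was -2.68 (SE 0.59, adjusted p = 0.00316, limma) and stayed called without any 1 tumor, from -3.14 to -2.26. With sarcoma as the 2 tumors titled Sarcoma, which are also the lower 2, it was -1.61 and not called (adjusted p = 0.137, limma). The 5 melanomas were at 5.96, 6.02, 7.54, 7.68 and 8.75, so 2 of them lay inside the lymphoma range. Lymphoma minus melanoma was called at -1.64 (SE 0.56, adjusted p = 0.0413, limma), a call that was lost without any 1 of 7 tumors (lymphoma 1, 3, 5 or 6, or melanoma 2, 3 or 4), and the difference ranged from -1.95 to -1.25 over the 19 tumors left out in turn. Of the 3 probesets, CfaAffx.22339.1.S1_at was above the median of all values in no tumor. The other two gave lymphoma minus sarcoma at -3.29 and -3.70, both called, and lymphoma minus melanoma at -1.79 and -2.10, neither called (adjusted p = 0.0733 and 0.063, limma). The nasal tumor was at 9.97, 3.27 above the mean of the other 22 tumors (6.70, SD 1.32), and was the highest tumor on both of these probesets, with signals of 2769 and 3474.

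IGFBP4, the substrate of PAPPA, was highest in STS_1 (10.23) and HCC (9.94). The other sarcomas were at 8.89 (Sarcoma_0), 8.34 (STS_0) and 7.80 (Sarcoma_1), and the TCC were at 5.98, 6.90 and 7.70, all below every sarcoma. Sarcoma minus TCC was 1.95 (SE 0.56, adjusted p = 0.0304, limma). The 7 lymphomas ran from 6.48 to 8.23 with a median of 7.41, overlapping the sarcomas, and lymphoma minus sarcoma was -1.50 (SE 0.46, adjusted p = 0.0238, limma). Both calls depended on single tumors. Without STS_1 they became 1.48 (adjusted p = 0.0904, limma) and -1.03 (adjusted p = 0.116, limma), without Sarcoma_0 1.93 (0.0547) and -1.48 (0.0506), and the call against TCC was also lost without TCC 1 (1.52, 0.173) or TCC 2 (1.97, 0.0786). With sarcoma as the 2 tumors titled Sarcoma they were 1.48 (adjusted p = 0.158, limma) and -1.03 (adjusted p = 0.222, limma). The call against TCC was also lost with a pseudocount of 1 (2.49, adjusted p = 0.0561, limma). The melanomas lay between 6.09 and 8.16 with a median of 7.21, and melanoma minus sarcoma, at -1.72, was not called (interval -2.75 to -0.69, adjusted p = 0.0793, limma) except without melanoma 3 (-1.99, adjusted p = 0.0423) or Sarcoma_1 (-2.06, adjusted p = 0.0489). The probesets were unlike in brightness, since Cfa.17073.1.S1_at read between 396 and 13499 over the 23 tumors and CfaAffx.24660.1.S1_at never rose above 99.5. On the bright probeset alone both differences were larger, at -2.14 for lymphoma minus sarcoma (adjusted p = 0.00423, limma) and 2.44 for sarcoma minus TCC (adjusted p = 0.0138, limma). On that probeset STS_1 read 13499, HCC 9777, HSA 5376, STS_0 3910 and Sarcoma_0 3725, while Sarcoma_1 at 1499 was below lymphoma 6 (2274) and 3 melanomas (1578 to 1816). On CfaAffx.24660.1.S1_s_at, the other probeset kept, lymphoma minus sarcoma was -1.52 and sarcoma minus TCC 1.95, neither called (adjusted p = 0.089 and 0.123, limma).

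The 13 fibroblast genes, which include COL1A1, COL3A1 and DCN, were highest in sarcoma too, as these 3 members were, and lowest in lymphoma, as IGFBP5 and IGFBP6 were but IGFBP4 was not. Their mean was 7.68 to 8.81 in lymphoma, 8.93 to 11.34 in melanoma, 8.99 to 10.44 in TCC and 11.27 to 12.39 in sarcoma. STS_1 had the highest fibroblast mean of all 23 tumors (12.39) and was first in IGFBP4 and IGFBP6 and second in IGFBP5. Melanoma 3 had the highest fibroblast mean among the melanomas (11.34) and the highest IGFBP4 (8.16) and IGFBP5 (8.75) among them, but its IGFBP6 (6.91) was below that of melanoma 2 (7.04) and melanoma 4 (7.03). Sarcoma_0 was at 11.77 with an IGFBP5 of 6.84 and an IGFBP6 of 7.04, the lowest of the sarcomas in both. HCC, with the lowest fibroblast mean of all (7.43), had the second highest IGFBP4, and the nasal tumor, at 8.60, had the highest IGFBP5. The part of fibroblast content in the differences was not tested.

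**Figure D3:**
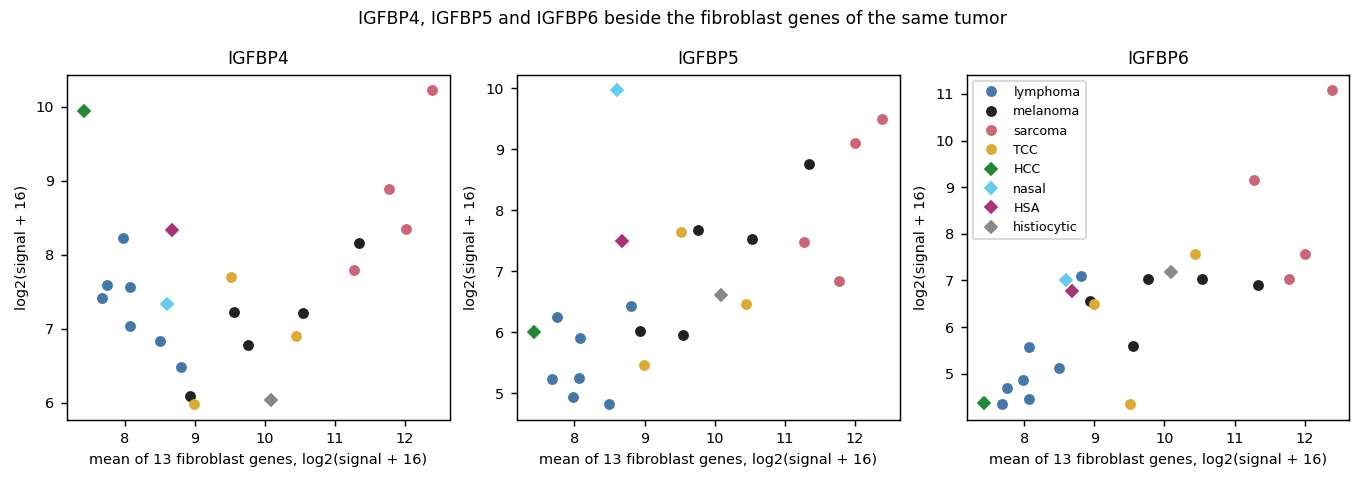
Level of IGFBP4, IGFBP5 and IGFBP6 in each of the 23 tumors (vertical axis, log2(signal + 16)) against the mean of 13 fibroblast genes in the same tumor (horizontal axis, same scale). Circles are tumors of the replicated types and diamonds the single tumors. The sarcomas lie at the right, from 11.27 to 12.39, with melanoma 3 (11.34) among them. HCC (IGFBP4, 9.94) and the nasal tumor (IGFBP5, 9.97) lie high at fibroblast means of 7.43 and 8.60.

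IGFBP3, the main carrier of IGF in blood, was highest in TCC. The 3 TCC were at 8.85 (TCC 1), 9.47 (TCC 2) and 10.30 (TCC 0), and the 7 lymphomas ran from 5.82 to 7.11 with a median of 6.83, with no overlap. Lymphoma minus TCC was -2.92 (SE 0.66, adjusted p = 0.00318, limma), a 7.58-fold difference of the signal plus 16, and it stayed called without any 1 tumor, from -3.27 to -2.54. The sarcomas were at 7.30 (STS_0), 7.38 (Sarcoma_1), 7.80 (Sarcoma_0) and 9.24 (STS_1). All of them lay above all lymphomas, yet lymphoma minus sarcoma, at -1.32 (interval -2.56 to -0.07), was not called (adjusted p = 0.118, limma). The melanomas fell apart into a low pair, at 5.64 and 6.94, and 3 tumors at 8.50, 9.26 and 9.79. Lymphoma minus melanoma was -1.41 (adjusted p = 0.077, limma) and melanoma minus TCC -1.51 (adjusted p = 0.191, limma), neither of them called. Without melanoma 1, the lowest, the former was called at -2.01 (adjusted p = 0.00733, limma). HCC was at 8.62, the nasal tumor at 7.02, HSA at 6.39 and histiocytic sarcoma at 6.35. IGFBP3 was read by 1 probeset, so no second reading was at hand.

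IGFBP1, the insulin-regulated liver member, was bright in HCC and in 2 of the 3 TCC. On the probeset Cfa.12501.1.A1_at the signal was 25165 in HCC, 6776 in TCC 1, 6245 in TCC 2 and 118 in TCC 0, and in the other 19 tumors the lowest was 1.58, the median 3.81 and the highest 58.4. The probeset CfaAffx.19068.1.S1_s_at had the same 3 tumors on top, with 13478 in HCC, 1182 in TCC 1 and 1314 in TCC 2, and read under 16 in TCC 0. The other 3 probesets stayed at or below 703 in HCC and at or below 39.6 in every TCC. So 2 of the 5 probesets saw the TCC signal and 3 did not. Whether all 5 read the same transcript was not tested, and the mean over probesets, with the differences computed from it, depends on that.

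**Figure D4:**
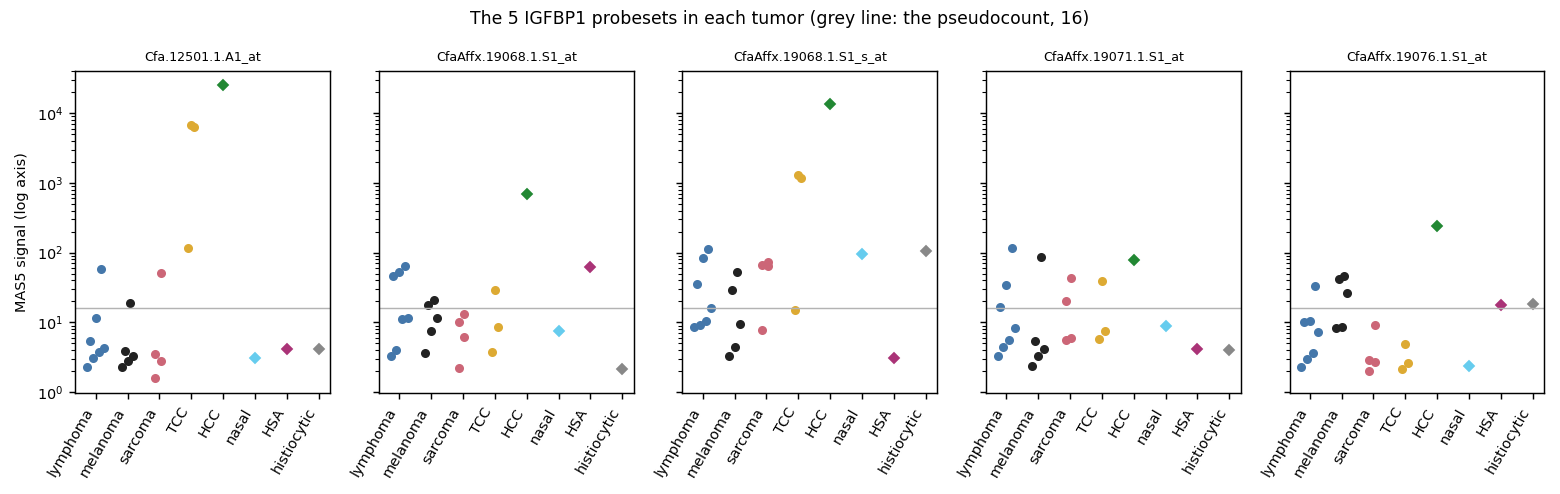
MAS5 signal of the 5 IGFBP1 probesets in each of the 23 tumors, on a logarithmic vertical axis, by tumor type. Circles are tumors of the replicated types, diamonds the single tumors, and the grey line marks a signal of 16, the amount added before taking logarithms. On Cfa.12501.1.A1_at, HCC (25165), TCC 1 (6776) and TCC 2 (6245) stand above TCC 0 (118) and all other tumors (at most 58.4).

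As a gene mean, IGFBP1 was at 10.47 in HCC, 7.43 in TCC 2, 7.26 in TCC 1 and 5.30 in TCC 0, between 4.36 and 5.68 in the lymphomas, between 4.68 and 5.43 in the sarcomas, between 4.76 and 4.93 in the melanomas and between 4.86 and 4.97 in the nasal tumor, HSA and histiocytic sarcoma. TCC 0 was thus above all melanomas but inside the range of lymphomas and sarcomas. Lymphoma minus TCC was -1.66 (SE 0.49, adjusted p = 0.02, limma), with melanoma minus TCC at -1.81 (SE 0.52, adjusted p = 0.03, limma) and sarcoma minus TCC at -1.77 (SE 0.54, adjusted p = 0.0441, limma). With no filter on low values all 3 stayed called (adjusted p = 0.00861 to 0.0219, limma). Without TCC 1 or without TCC 2 all 3 calls were lost, with differences of -1.51 to -1.28 and adjusted p-values of 0.128 to 0.209 in limma. The sarcoma call was also lost, at an unchanged or nearly unchanged difference, without any 1 of 8 other tumors (adjusted p = 0.0504 to 0.083, limma). It was lost too with sarcoma as the 2 tumors titled STS (-1.61, adjusted p = 0.154, limma) or as the 2 titled Sarcoma (-1.92, adjusted p = 0.0859, limma). On Cfa.12501.1.A1_at alone the 3 differences were -6.16, -6.38 and -6.13 (adjusted p = 5.1e-05, 0.000149 and 0.000448, limma). Each stayed called without any 1 of the 3 TCC, between -8.24 and -5.16. On CfaAffx.19068.1.S1_s_at alone, lymphoma and melanoma minus TCC were called (-3.04 and -3.54) and sarcoma minus TCC was not (-2.59, adjusted p = 0.119, limma), and no call was left without TCC 1 or TCC 2. Both probesets passed the filter of the probeset fit (a level over 7.24 on 3 or more arrays) only through HCC, TCC 1 and TCC 2. Their calls therefore go with the way they passed it, as for the gene mean. The hepatocyte genes, which include ALB, TTR and APOA1, were at 4.97 to 5.35 in the 3 TCC, no higher than the 5.07 to 5.93 of lymphoma, melanoma and sarcoma and far from the 14.00 of HCC.

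IGFBP2, a liver and fetal member, was high in single tumors of several types rather than in a type. It was at 10.63 in HCC, 10.26 in STS_1, 9.46 in melanoma 3, 7.84 in Sarcoma_0, 7.72 in lymphoma 4 and 7.09 in melanoma 4. The remaining 17 tumors were below 7.03, down to 4.27 in Sarcoma_1. The sarcomas alone thus held both the second highest and the lowest tumor (SD 2.51, n = 4). No pair of types was called, and the 95% intervals of the 6 differences ran between -3.64 and 4.19, which leaves large differences in either direction possible.

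IGFBP7, the vessel-associated member, was bright in every tumor and its types could not be separated. The means were 12.77 ± 0.70 (SD, n = 7) in lymphoma, 13.23 ± 0.45 (SD, n = 5) in melanoma, 13.01 ± 1.02 (SD, n = 4) in sarcoma and 13.27 ± 0.13 (SD, n = 3) in TCC. The 95% intervals of all 6 differences lay between -1.39 and 1.08. The highest tumor was HSA at 14.54, 1.63 above the mean of the other 22 (12.91, SD 0.68), followed by Sarcoma_0 at 14.24 and melanoma 3 at 13.96. The lowest were lymphoma 6 at 11.70 and, both at 11.77, STS_0 and HCC. On the probeset CfaAffx.4359.1.S1_s_at HSA read 47074 and the next tumor, Sarcoma_0, 29444. On Cfa.2101.1.A1_at the highest tumor was Sarcoma_0, at 12606. The 11 endothelial genes, with PECAM1, VWF and CDH5 among them, had a mean of 9.19 in HSA and 6.55 to 7.84 in the other tumors. The 7 smooth muscle and pericyte genes were at 9.73 in HSA and 6.79 to 8.94 elsewhere. Their part in the IGFBP7 level was not tested.

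Several of the peaks fell in the same tumors. STS_1 was among the 3 highest tumors for 4 members (IGFBP2, IGFBP4, IGFBP5 and IGFBP6) and HCC for 3 (IGFBP1, IGFBP2 and IGFBP4), as was TCC 2 (IGFBP1, IGFBP3 and IGFBP6). HCC was at the same time among the 3 lowest for IGFBP6 and IGFBP7, and lymphoma 6 among the 3 lowest for 4 members. IGF2, the fetal ligand of the family, had its 2 highest readings in the same pair, 12.54 in STS_1 and 11.64 in HCC, with HSA next at 7.58. The share of all genes for which these tumors rank as high was not computed, so the counts of members are a description only. The median array signal was 124.2 in STS_1, 106.8 in HCC and 102.9 in TCC 2.

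The other genes of the IGF pathway were taken as a list of 28 ligands, receptors, receptor substrates, partners, proteases and related proteins, of which 27 were on the array and 20 passed the filter. In the F test 7 of the 20 were called (IGF1, IGF1R, SHC1, PAPPA, HTRA1, ESM1 and CCN2), a share of the list near the 35.6% of all genes, and 8 were called in at least 1 pair of types, with STC2 as the addition, or 40%, beside 35.1% of all genes. Over the 6 pairs, 15 of 120 tests were called, or 12.5%, beside 11.8% of the tests of all genes. CCN2 sat at the threshold of the F test, with an adjusted p that rounds to 0.05 in limma. The call of STC2 goes with the way it passed the filter, as given below.

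Among the ligands, IGF1 was at 9.48 ± 1.47 (SD, n = 7) in lymphoma, 8.94 ± 1.60 (SD, n = 4) in sarcoma, 6.82 ± 0.997 (SD, n = 5) in melanoma and 6.49 ± 1.27 (SD, n = 3) in TCC. Of IGFBP3, IGFBP5 and IGFBP6, whose means were lowest in lymphoma among these types, only IGFBP5 was called against melanoma and only IGFBP3 against TCC. In IGF1, lymphoma exceeded melanoma by 2.66 (adjusted p = 0.0119, limma) and TCC by 2.99 (adjusted p = 0.0146, limma). The difference from TCC was not called without TCC 1 or TCC 2, and ranged from 2.34 to 3.61 over the 19 tumors left out in turn. IGF1 was lowest of all in HCC, at 4.47. IGF2 was not called in any pair, with a spread in sarcoma of 3.59 (SD, n = 4).

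Among the receptors, IGF1R, through which both ligands signal, was lower in lymphoma (6.46 ± 0.40, n = 7) than in melanoma (8.96 ± 1.48, n = 5) by 2.49 (lymphoma minus melanoma -2.49, adjusted p = 0.00276, limma). The difference from TCC (8.25 ± 0.33, n = 3; SDs) was -1.79 at an adjusted p = 0.0497 in limma, and that call was lost without any 1 of 13 tumors, with a pseudocount of 64, with no filter and with no variance trend (adjusted p = 0.0558 to 0.0686 in these 3, limma). IGF2R, which takes up and degrades IGF2, and the insulin receptor INSR were not called in any pair. The intervals of IGF2R stayed between -1.66 and 1.78.

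Of the proteases that cut binding proteins, HTRA1 was higher in all 4 sarcomas (11.48 to 12.70) than in any other of the 23 tumors. Lymphoma minus sarcoma was -3.34 (adjusted p = 4.4e-06, limma), melanoma minus sarcoma -2.53 (adjusted p = 0.0012, limma) and sarcoma minus TCC 2.35 (adjusted p = 0.00154, limma), and all 3 stayed called without any 1 tumor. PAPPA, which cuts IGFBP4 and IGFBP5, was lower in lymphoma than in melanoma (-1.72, adjusted p = 0.00248, limma). STC2, a PAPPA inhibitor, was lower in lymphoma than in TCC (-1.94, adjusted p = 0.0212, limma), a call lost without TCC 0 or TCC 2 (-1.23 at the nearest to 0).

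Of the proteins related to the family by sequence, ESM1, an endothelial secreted proteoglycan, was lower in lymphoma than in melanoma (-2.96), sarcoma (-1.80) and TCC (-3.77), with adjusted p-values of 0.000247, 0.0173 and 8.15e-05 in limma, and the sarcoma call was lost without Sarcoma_0 and with sarcoma as the 2 tumors titled STS (-1.31, adjusted p = 0.179, limma). CCN2, a matrix protein also known as connective tissue growth factor, was lower in lymphoma than in melanoma (-1.72, adjusted p = 0.0238, limma), a call lost without melanoma 3 (-1.33). The adaptor SHC1 was highest in sarcoma. Lymphoma minus sarcoma was -1.30 (adjusted p = 0.00105, limma) and sarcoma minus TCC 1.08 (adjusted p = 0.0275, limma), and without STS_0 both fell under the size of 1, to -0.98 and 0.76. The call against TCC was also lost without any 1 of the 3 TCC, with a pseudocount of 64 (0.95), with the probeset of the highest mean (adjusted p = 0.0576, limma) and with sarcoma as the 2 tumors titled Sarcoma (0.91, adjusted p = 0.0616, limma).

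**Figure D5:**
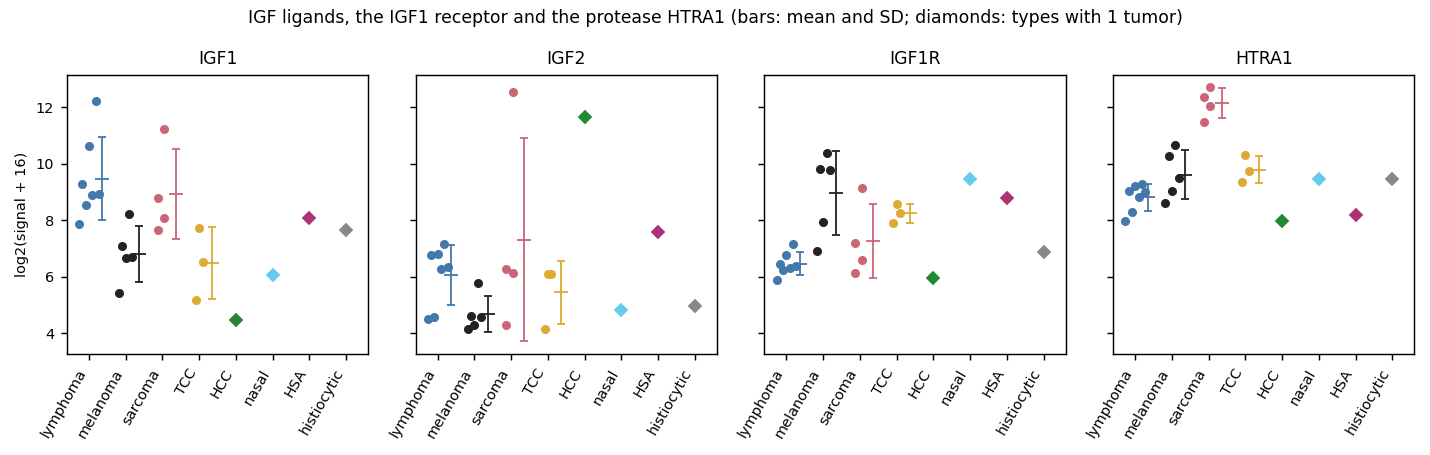
Level of the ligands IGF1 and IGF2, the receptor IGF1R and the protease HTRA1 as log2(signal + 16) in each tumor, by tumor type, with the mean and SD of the replicated types beside their circles and diamonds for single tumors. IGF2 stands high in STS_1 (12.54) and HCC (11.64), and the 4 sarcomas lie at 11.48 to 12.70 in HTRA1.

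The genes whose levels ran most like each member were ranked by Pearson correlation over the 23 tumors, as a description, since tumors of a type and the HCC share much of what moves. For IGFBP1 they were HMGCS1 (0.90), a cholesterol synthesis enzyme, ACAA2 (0.89), a fatty acid oxidation enzyme, and ENTPD5 (0.87). Over the 19 tumors of the 4 replicated types the same genes stood at 0.85, 0.65 and 0.61. IGFBP3 ran with BCAM (0.80), TNFRSF12A (0.79) and PLCE1 (0.77), at 0.81, 0.78 and 0.81 over the 19. IGFBP5 ran with CNN3 (0.85), an actin-binding calponin, NID2 (0.77), a basement membrane protein, and TRIP6 (0.76), at 0.83, 0.77 and 0.74 over the 19. IGFBP6 ran with PLXDC2 (0.83), C1QTNF2 (0.82) and NR1D2 (0.81), at 0.82, 0.86 and 0.90. The closest genes were less close for IGFBP2 (AADAT, EEPD1 and CALR, 0.67 to 0.70), IGFBP4 (PDZK1, FAM193B and CALR, 0.69 to 0.74) and IGFBP7 (HTR2B, CPNE2 and SLC25A37, 0.72 to 0.73). Over the 19 tumors these stood at 0.60, 0.72 and 0.48 for IGFBP2, at 0.62, 0.61 and 0.74 for IGFBP4 and at 0.62, 0.53 and 0.72 for IGFBP7. For each of these members, and for IGFBP5, 0 of the 3 named genes were among the closest 3 over the 19. For IGFBP1 it was 1 of the 3, and for IGFBP3 and IGFBP6 2 of the 3 each. By Spearman (rank) correlation over the 23 tumors, 0 of the 3 named genes were among the closest 3 for IGFBP1 and IGFBP7. The number was 1 each for IGFBP2, IGFBP5 and IGFBP6, and 2 each for IGFBP3 and IGFBP4.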

How the data were processed

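Tumor RNA from 23 dogs was amplified (NuGEN Ovation Pico WTA) and read on 1 array per tumor. The authors deposited intensity values from MAS5, in which every probeset has a linear signal and arrays are scaled to a common level (trimmed mean 500.1 on each). Signals were turned to log2(signal + 16), so that fold changes of dim genes are understated, and averaged over the probesets of a symbol. Genes with at least 3 arrays above the median of all values were kept (9972 of 15115).

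Lymphoma, melanoma, sarcoma and TCC (19 tumors) entered a common linear model (R 4.3.3; limma 3.58.1, eBayes, variance trend on), and were compared by an F test and 6 two-sided pairwise contrasts, with Benjamini-Hochberg adjustment over all kept genes. Each tumor is from a separate dog. The fit was tested on simulated data. Every call was repeated with 1 or 64 as the pseudocount, after quantile normalization, without the filter, with the brightest probeset only, without the trend, with the title number as a block, with either title of sarcoma alone, and without each tumor. A further repeat used the adjusted p alone, without the size threshold, and could not lose a call. Probesets fitted alone, and the alternatives for the pathway genes and for the F test of each member, were added after the values were seen. The members, lists and tests were chosen with earlier results of these data known. Named genes are all members, pathway genes called in any test, IGF1, IGF2, IGF1R, IGF2R and INSR, the 3 genes most correlated with each member, and up to 3 defining genes of a marker list. The 13167 unnamed probesets and the 439 with several symbols were not used.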

Additional observations from a re-analysis of the deposited data

Results flagged for a closer look

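IGFBP1 in sarcoma held 1 tumor far from the others: STS_1 was at 5.43, and the next of the 4 sarcomas, Sarcoma_1, at 4.76. It was the only one of 21 groups of 4 to 7 tumors in which a single tumor stood apart to this degree, and chance gives about 1 in 20 such groups. Both values are below 7.03, the median used by the filter.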

How the results depend on the processing

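Over 258 repeats of the 9 member calls under the alternatives, 216 stayed called, 42 were lost and 0 reversed. These include the repeats on the adjusted p alone, without the size threshold, which could not lose a call. They leave out the 3 IGFBP1 calls with a pseudocount of 1, where IGFBP1 was not tested, so the share that stayed called is overstated. Leaving out each tumor in turn gave 4 to 5 members in the F test, 0 to 2 for lymphoma against melanoma, 2 to 3 for lymphoma against sarcoma, 1 to 2 for lymphoma against TCC, 0 to 1 for melanoma against sarcoma, 0 to 1 for melanoma against TCC and 0 to 3 for sarcoma against TCC. With sarcoma as the 2 tumors titled Sarcoma, the F test called 3 members in place of 5, lymphoma against sarcoma 1 in place of 3 (IGFBP6 alone) and sarcoma against TCC 0 in place of 2. As the 2 titled STS, sarcoma against TCC kept its count of 2, with IGFBP1 lost and IGFBP5 gained (2.77, adjusted p = 0.0317, limma). Lymphoma against melanoma gave 0 in place of 1 with a pseudocount of 64, with no filter and with the probeset of the highest mean, which also gave 1 in place of 2 for sarcoma against TCC. With a pseudocount of 1, under which IGFBP1 did not pass the filter, lymphoma against TCC gave 1, melanoma against TCC 0 and sarcoma against TCC 0. The causes of the other losses were not tested. Of the pathway genes, the F test called 6 to 8 and the pairs 7 to 9 under all alternatives.

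The labels do not say that tumors of different types with the same title number belong together. Deviations from the type means correlated at a median of 0.01 between tumors of the same number (23 pairs) and -0.01 between others (108 pairs). Of 19 tumors, 5 correlated best with one of their own number. The count that chance would give was not computed, so these values do not decide whether the numbers tie tumors. With the number as a replicate block, lymphoma against melanoma gave 0 members, lymphoma against TCC 1, melanoma against TCC 0 and sarcoma against TCC 1. The calls lost were all 3 of IGFBP1, IGFBP4 in sarcoma against TCC (1.94, adjusted p = 0.0597, limma) and IGFBP5 in lymphoma against melanoma, and the 1 member of sarcoma against TCC was a gained one, IGFBP6 (3.16, adjusted p = 0.00891, limma). The calls of SHC1 in sarcoma against TCC and IGF1R in lymphoma against TCC were lost as well. Genes called by the F test over all genes went from 3554 to 2523.

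Arrays give no read depth. Between 19.8% and 27.2% of the probesets of an array read below 16, and for dim members such as IGFBP1 outside HCC and TCC differences are compressed by the pseudocount.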
